A study of Mus musculus with 56 samples.

Results

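The variable segments of the T cell receptor were measured as gene rows of a bulk RNA-seq count table of mouse CD8+ T cells. The 132 rows described here are all rows with a Trav or Trbv symbol that the annotation lists as functional variable genes, 110 Trav segments for the alpha chain and 22 Trbv segments for the beta chain, among 55359 rows in all. A further 33 variable rows are pseudogenes and were left out. The cells came from spleen and lymph nodes of female C57BL/6 mice and had bound the OVA:Kb tetramer, so that each sort held T cells specific for 1 peptide antigen shared by graft and fetus (TFGS). Naive mice had no treatment and Sensitized mice had rejected an allogeneic skin graft of a 2W-OVA.BALB/c donor. N+P mice were naive before a semi-allogeneic pregnancy sired by a 2W-OVA.BALB/c male, and S+P mice had both the rejected graft and the pregnancy; both were studied shortly after delivery. N+P cells were divided into C1 (PD1-) and C5 (PD1+CD73+), and S+P cells into C4 (PD1-), C5 (PD1+CD73+) and C7 (PD1+CD73-).

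Each rearranged receptor chain joins 1 variable segment to a joining segment (and, for the beta chain, a diversity segment) as a T cell passes through the thymus. The descendants of the cell inherit that choice. A population of many unrelated T cells therefore carries many segments, whereas a population that descends from few cells carries few. In the alpha and beta chains the variable segment encodes the first 2 antigen-contact loops (CDR1 and CDR2) and the start of the third, CDR3, which begins at a conserved cysteine. Bulk RNA-seq counts show how much messenger RNA carries each segment, but they do not join an alpha segment to its beta partner and do not read the CDR3.

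The table held 56 libraries of 200 sorted cells each, with library totals of 6636532 to 32625243 counts, and up to 2 technical libraries (A and B) for each mouse and subset. Counts of all libraries from the same mouse and subset were added up. The resulting 30 samples comprised 3 Naive, 3 N+P C1, 3 N+P C5, 4 Sensitized, 6 of S+P C4, 6 of S+P C5 and 5 of S+P C7. Naive mouse 1 library A and S+P C4 mouse 1 library A held identical counts and were left out of both groups. In S+P C7, library A of mouse 1 and library B of mouse 2 were near copies (Pearson's r of log2 CPM, counts scaled to the library total, 0.999, against 0.953 for the next closest pair in the table), and they were averaged and counted as 1 sample with the other library of mouse 1, called mouse 1/2 below. S+P C4 mouse 2, S+P C4 mouse 3 and S+P C7 mouse 3 stood apart with 8002, 7436 and 7879 detected genes, against 12383 to 26805 in the other 27 samples. CD8 T cell genes were high throughout, with a summed level of 2662 to 6309 CPM for 4 genes. Of the markers of CD4 T cells, Cd4 stayed at or below 3.71 CPM and Foxp3 at or below 4.45 CPM. The third, Zbtb7b, had 4.04 to 28.6 CPM in Sensitized samples, with its highest level in mouse 2. Trdc, the constant gene of the delta chain, stayed at or below 9.67 CPM. Zbtb16, which marks NKT and MAIT cells, stayed at or below 3.17 CPM. The 5 gamma-delta T cell genes together had 1.15 to 84.8 CPM in Naive, N+P and Sensitized samples, but up to 1374 CPM in S+P C4 (mouse 2), 86.7 to 376 CPM in S+P C5 and 56.6 to 1009 CPM in S+P C7. Trgc2, a constant gene of the gamma chain, made up most of the highest values, with 1374 CPM in S+P C4 and 748 CPM in S+P C7, while Trdc was 0 in all S+P C5 samples. The 2 NK cell genes together reached 126 CPM in Sensitized and 328 CPM in S+P C7 (mouse 3), against at most 0.082 CPM in Naive. In Sensitized this was Klrb1c, with 53.3 to 126 CPM, while Ncr1 had at most 1.90 CPM. In S+P C7 Klrb1c reached 225 CPM and Ncr1 103 CPM. The part of these transcripts in the results was not tested. The summed level of 6 B cell genes was 36.4 to 2222 CPM in all samples but S+P C7 mouse 3, which had 15267 CPM together with 18822 CPM of 4 red cell genes.

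Germline segments that led in at least 1 mouse are shown here by the last 90 bases of their variable exon in the GRCm39 genome (GENCODE M39 annotation), 5′ to 3′, with capitals from the conserved cysteine codon to the end of the exon, the part that opens the CDR3. Trav segments lie on chromosome 14 and Trbv segments on chromosome 6, each with a leader exon and a variable exon. Trav19 and Trbv15, at chr14:54082979-54083284 and chr6:41118295-41118592, led in S+P mouse 5.
Trav19: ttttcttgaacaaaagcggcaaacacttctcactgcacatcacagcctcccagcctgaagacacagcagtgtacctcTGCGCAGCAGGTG
Trbv15: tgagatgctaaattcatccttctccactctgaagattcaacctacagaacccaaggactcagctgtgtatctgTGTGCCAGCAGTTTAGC
Trav12-2, with Trbv14 and Trbv13-1, at chr14:53854080-53854371, chr6:41112254-41112550 and chr6:41093109-41093402, led in S+P mouse 4.
Trav12-2: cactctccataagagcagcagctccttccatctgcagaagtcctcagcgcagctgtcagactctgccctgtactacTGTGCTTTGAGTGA
Trbv14: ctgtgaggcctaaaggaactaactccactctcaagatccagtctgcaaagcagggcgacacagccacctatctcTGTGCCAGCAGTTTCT
Trbv13-1: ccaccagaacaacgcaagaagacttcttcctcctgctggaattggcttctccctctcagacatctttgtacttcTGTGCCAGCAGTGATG
Trav14n-3 and Trbv17, at chr14:53607724-53608032 and chr6:41140196-41140490, led in S+P mouse 2.
Trav14n-3: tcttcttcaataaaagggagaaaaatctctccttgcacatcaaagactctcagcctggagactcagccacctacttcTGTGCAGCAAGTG
Trbv17: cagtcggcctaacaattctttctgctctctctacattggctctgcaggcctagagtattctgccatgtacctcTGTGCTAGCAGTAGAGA
Trav5-4, at chr14:53941681-53941971, led in S+P mouse 1, and Trbv31, at chr6:41534627-41534918 and read from the minus strand, led in S+P mouse 6, each in 2 of the 3 subsets: Trav5-4 in C5 and C7, and Trbv31 in C5 and C7.
Trav5-4: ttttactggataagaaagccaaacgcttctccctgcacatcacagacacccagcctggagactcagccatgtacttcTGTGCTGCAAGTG
Trbv31: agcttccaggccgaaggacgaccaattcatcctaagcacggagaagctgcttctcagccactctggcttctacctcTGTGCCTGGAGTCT

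Because reads that map to several places had been removed, segments with near copies can lose counts. All 22 Trbv segments had letters of their own: every 100-base window of their spliced germline sequence occurred once among the 171 Trav, Trbv and Trdv gene models compared. The Trav locus of C57BL/6 mice holds duplicated blocks whose copies carry d and n in their names, and 36 of the 110 Trav segments had no unique window. Of the 16 Trav segments without a count in any sample, 12 had no unique window, as had 24 of the 94 Trav segments with counts. A low or absent Trav count is therefore not read as absence of the segment.

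In Naive mice many segments shared the receptor messenger RNA, and no segment stood out. Concentration was measured by the inverse Simpson number, which is the number of equally used segments that would be as even as the ones observed. For Trav it was 29.5, 32.8 and 33.9 in Naive mice 1 to 3, and for Trbv 12.7, 13.3 and 13.2. The leading Trav segment of a Naive mouse held 6.49% to 7.39% of all Trav counts and the leading Trbv segment 11.7% to 14.0% of all Trbv counts. Trbv12-1, a segment of the Vβ5 family, held 14.0%, 11% and 10.9% of Trbv counts in the 3 Naive mice, and Trbv13-2, a Vβ8 segment, held 8.78%, 11.7% and 11.7%. PD1- cells of N+P mice (C1) had inverse Simpson numbers of 26.4, 31.2 and 29.5 for Trav and 14.0, 13.4 and 12.8 for Trbv. In both groups the mice also resembled each other. The overlap of 2 repertoires, the sum over segments of the smaller of both shares, was 65.3% to 70.2% between Naive mice for Trav and 77.2% to 85.1% for Trbv, and 55.8% to 63.8% and 81.4% to 83.9% between N+P C1 mice.

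Every sample of the other 5 groups was more concentrated than every Naive and N+P C1 sample, in both chains. Their highest inverse Simpson number was 20.1 for Trav and 10.2 for Trbv, both in N+P C5 mouse 2, against lowest values of 26.4 and 12.7 in the Naive and N+P C1 samples. In Sensitized mice the Trav number was 5.29, 10.8, 5.73 and 8.32 in mice 1 to 4 and the Trbv number 3.50, 7.06, 4.88 and 4.67. In N+P C5 it was 3.74, 20.1 and 5.02 for Trav and 4.82, 10.2 and 4.68 for Trbv, so mice 1 and 3 were far below mouse 2. The S+P samples covered the range from near 1 segment to an intermediate spread. For Trav their lowest, median and highest numbers were 2.08, 3.80 and 17.8 in C4, 1.57, 3.53 and 11.2 in C5, and 1.67, 4.47 and 8.14 in C7. For Trbv they were 2.13, 5.92 and 10.1 in C4, 1.42, 3.19 and 5.99 in C5, and 2.39, 3.86 and 5.62 in C7. The lowest C4 numbers came from mouse 3 for Trav and mouse 2 for Trbv, each 1 library with few detected genes (7436 and 8002). In bulk RNA a larger share of a segment from more cells and one from more receptor RNA in each cell cannot be told apart.

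**Figure D1:**
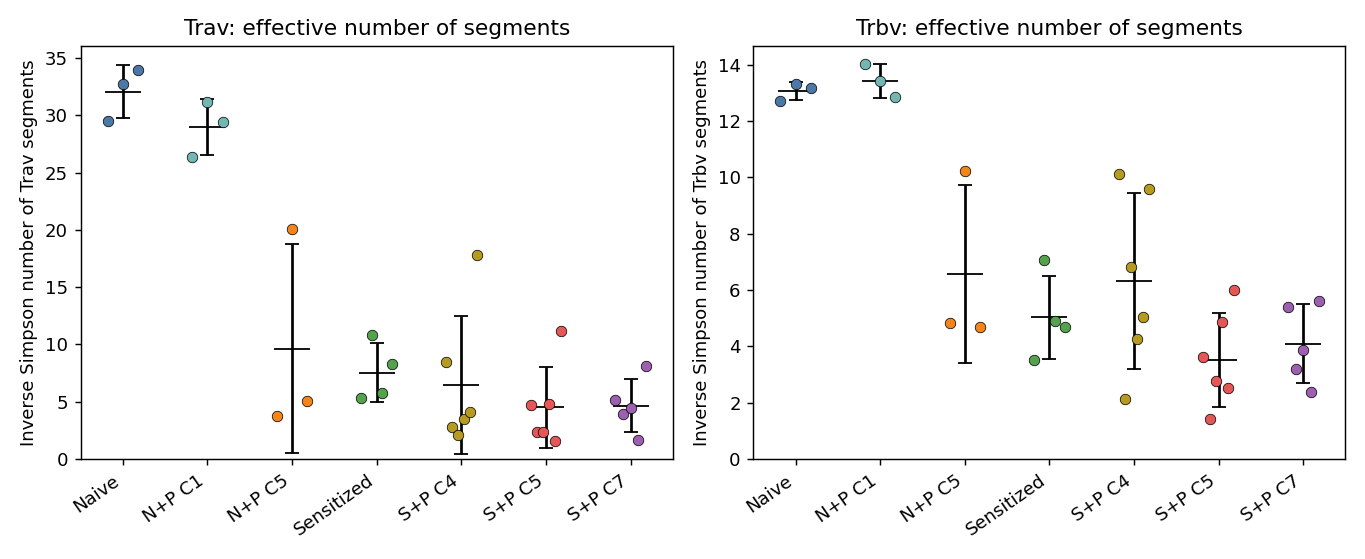
Inverse Simpson number of Trav segments (left) and Trbv segments (right), an effective count of segments without unit, in each mouse and subset; points are samples, and bars show the group mean ± SD. All Naive and N+P C1 points lie at or above 26.4 (Trav) and 12.7 (Trbv), and all points of the other 5 groups lie at or below 20.1 and 10.2.

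The contrasts of group means were tested by exact two-sided permutation of the samples, with Benjamini-Hochberg adjustment over 20 tests (10 contrasts in each chain). The mean Trav number was 7.53 ± 2.55 in Sensitized mice (SD, n = 4) and 32.1 ± 2.31 in Naive mice (SD, n = 3), a difference of -24.5, and the exact permutation p of 0.0286 was the smallest that this design allows. For Trbv the means were 5.03 ± 1.48 and 13.1 ± 0.308, a difference of -8.04 with the same exact p. After adjustment both stood at p = 0.25, above the threshold of 0.1. N+P C5 was below Naive by 22.4 for Trav and 6.49 for Trbv, and below N+P C1 by 19.4 and 6.85, each with an exact permutation p of 0.1, the smallest possible with 3 samples against 3. N+P C1 and Naive differed by -3.04 for Trav and 0.361 for Trbv (exact permutation p = 0.2 and 0.4). The labels do not say that replicates were handled separately from the start, so these p values measure only the spread between the samples.

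Within sensitized mice the subsets overlapped widely. S+P C5 had a lower mean Trbv number than S+P C4 (3.53 against 6.32, exact permutation p = 0.0844, adjusted p = 0.25), and its Trav number was 4.49 against 6.45 (exact permutation p = 0.587). With the mouse number as a block, over 6 pairs, the Trbv difference of -2.80 had an exact sign-flip p of 0.0625 and the Trav difference of -1.96 a p of 0.188. S+P C7 and S+P C5 differed by 0.169 for Trav and 0.564 for Trbv (exact permutation p = 0.965 and 0.548), and with the block the Trav difference was -0.26. S+P C5 was below Sensitized by 3.04 for Trav and 1.5 for Trbv (exact permutation p = 0.176 and 0.21) and below N+P C5 by 5.13 and 3.05 (exact permutation p = 0.167 and 0.0952). The last Trav difference rested on the even N+P C5 mouse 2: without that mouse it was 0.114. The fall of the log2 inverse Simpson number from Naive to N+P C5 was 2.15 for Trav and 1.09 for Trbv, and that from Sensitized to S+P C5 was 1.01 and 0.614. The difference between these changes, 1.14 and 0.477, had permutation p values of 0.388 and 0.52 when labels were permuted within each contrast.

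The segments that led differed from mouse to mouse. Over the 24 samples of the 5 more concentrated groups, 12 different Trav and 7 different Trbv segments held the largest share, which was 12.7% to 78.9% of Trav and 14.9% to 83.3% of Trbv counts. In 18 of the 24 samples the leading Trav segment held more than 25%, and likewise in 18 the leading Trbv segment. Counting error was small beside these values: the 95% Wilson interval of a leading share reached at most 2.10 percentage points to either side for Trav and 0.90 for Trbv, for 2117 to 22186 Trav and 7090 to 67231 Trbv counts a sample. These intervals cover counting error only, since the reads had no molecular identifiers.

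**Figure D2:**
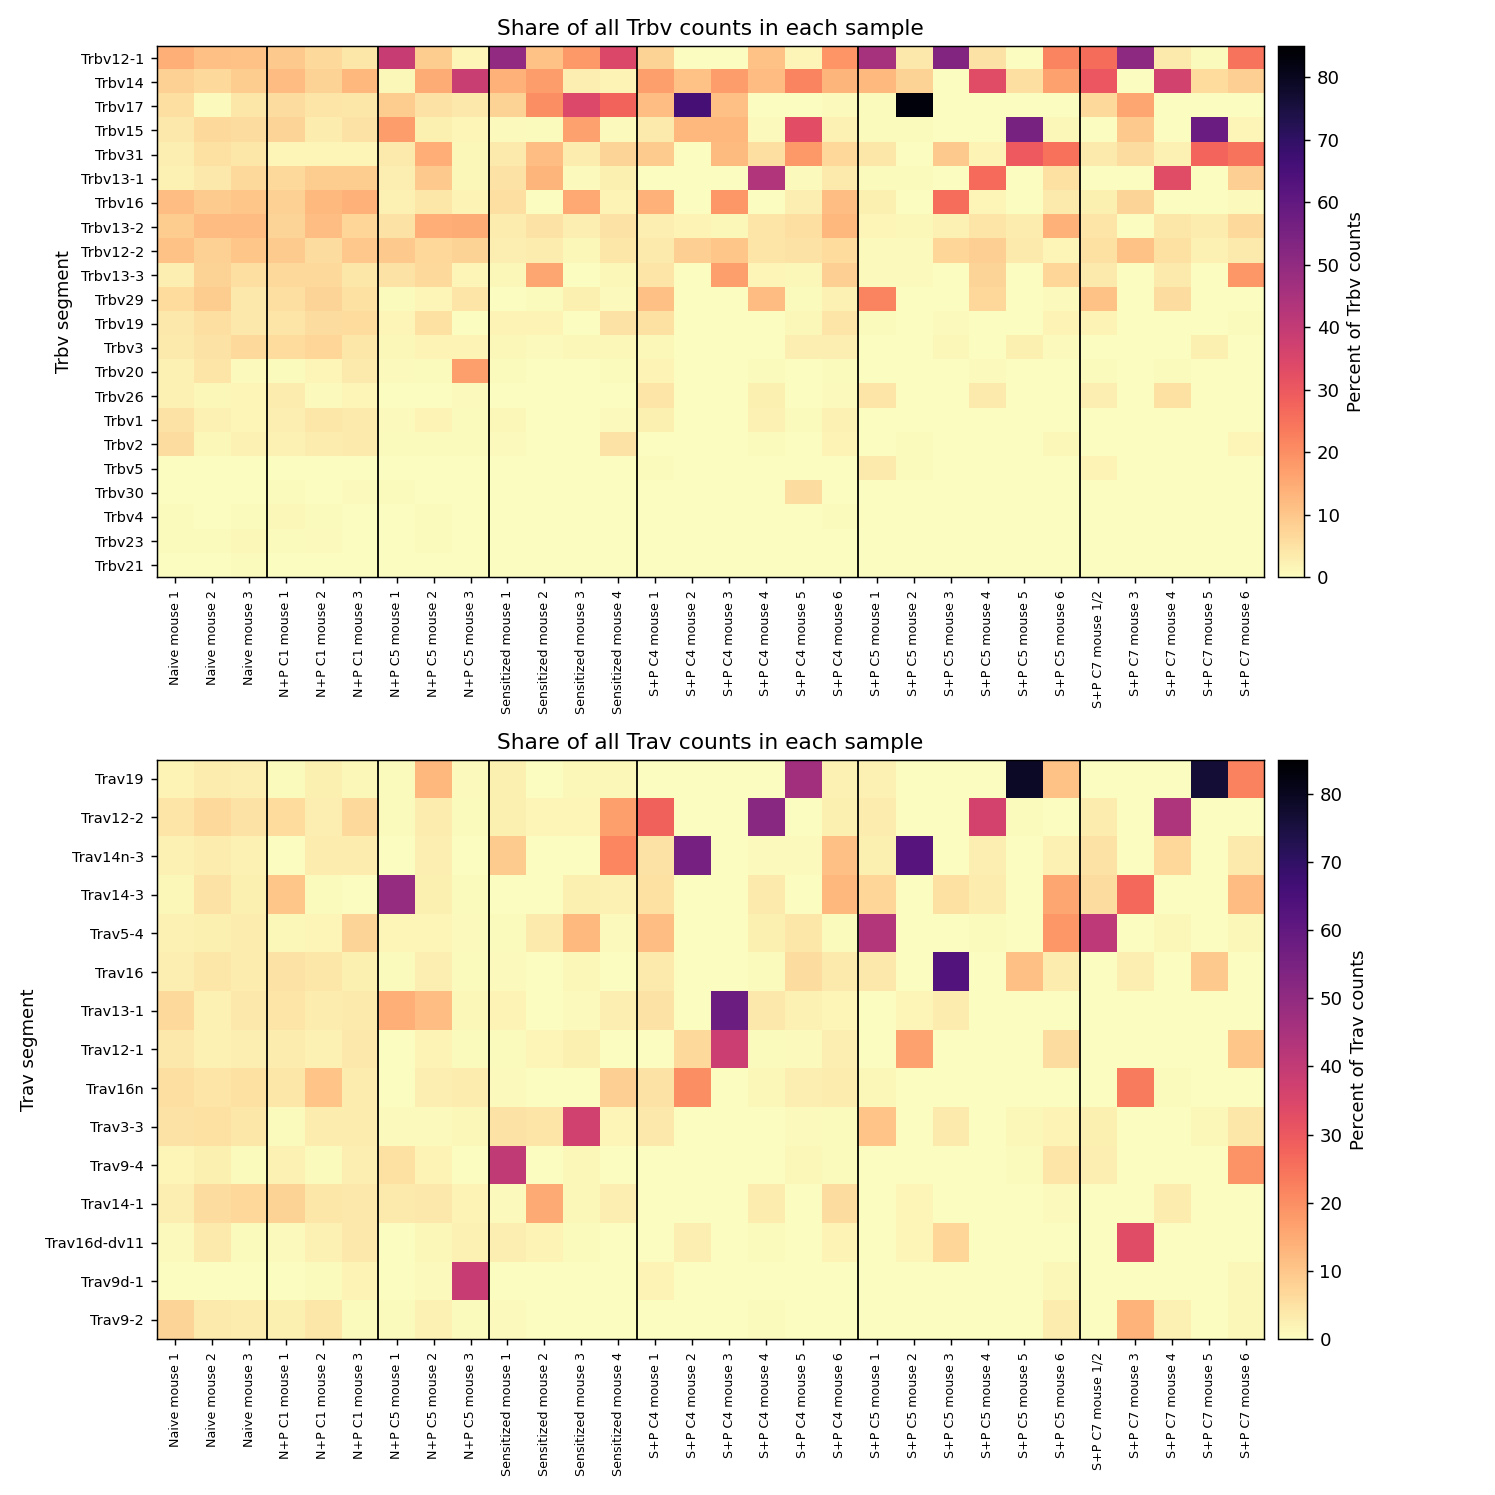
Share of each segment in percent of all Trbv counts (top) and all Trav counts (bottom) of a sample; columns are samples in group order with vertical lines between groups, rows are all 22 Trbv segments and the Trav segments that led in a sample or had one of the 10 highest mean shares, and darker colours stand for larger shares. The Naive and N+P C1 columns are pale throughout, and the dark cells of the other groups fall on different rows in different mice, such as Trbv17 at 83.3% in S+P C5 mouse 2.

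Among beta segments, Trbv12-1 had the highest mean share over all 30 samples, 16.4%, followed by Trbv14 with 13.2%, Trbv17 with 10.9%, Trbv15 with 8.80% and Trbv31 with 8.19%. This order rests on few mice, since 17 of the samples are from S+P mice with up to 3 subsets each: the median of Trbv17 was 24% in Sensitized but 0.0421% in S+P C5. Trbv12-1 varied from mouse to mouse in each of the concentrated groups. In Sensitized mice 1 to 4 it held 50.1%, 10.7%, 18% and 34.8% of Trbv counts, and in N+P C5 mice 1 to 3 it held 39%, 8.75% and 1.64%. In S+P C5 its lowest, median and highest shares were 0.0327%, 13.3% and 53.1%. Trbv17 held 5.36%, 0.792% and 4.04% in Naive mice and 7.81%, 20.2%, 34.2% and 27.8% in Sensitized mice. In the edgeR test its log2 fold change for Sensitized against Naive was 2.99 ± 3.07 (SE, adjusted p = 1). The SE here and below was derived from the F statistic of a fit in which all 7 groups share 1 estimate of spread. It is therefore not the spread of the Naive and Sensitized values alone. In S+P C5 the same segment held 83.3% in mouse 2 and at most 0.382% in the other 5 mice.

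The receptor of OT-I cells, the standard transgenic T cells for the OVA:Kb ligand, uses a Trav14 segment (Vα2) with a Trbv12 segment (Vβ5). The 2 Trbv12 segments together held 19.2% to 24.9% of Trbv counts in Naive mice and 12.2% to 18.4% in N+P C1. In the concentrated groups their joint share spread in both directions, from 9.55% to 48.5% in N+P C5, 13.8% to 52.8% in Sensitized, 6.30% to 25% in S+P C4, 3.35% to 60.1% in C5 and 2.44% to 61.5% in C7. The 9 Trav14 segments together held 13.3% to 18.7% of Trav counts in Naive mice, 4.44% to 28.9% in Sensitized and 0.273% to 63.5% in S+P C5. Trav14d-1, Trav14d-2, Trav14n-1 and Trav14n-2 had no unique window, so this sum can miss their reads. N+P C5 mouse 1 was high for both families, with 57.3% Trav14 and 48.5% Trbv12. Trav11, the segment of the invariant NKT receptor, and its copy Trav11d had 24 and 17 counts over all samples. Only 0.41% of the windows of Trav11 were unique, and Trav11d had no unique window. Their low counts therefore cannot show whether these segments were rare. Trav1, the segment of MAIT cells, held at most 2.89% of Trav counts in any sample.

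The split between near copies within these families is set beside their sequences. The variable exons of Trbv12-1 and Trbv12-2 differ at 32 of 293 bases, in capitals below, and every 100-base window of either segment occurred once among the models compared.
Trbv12-1: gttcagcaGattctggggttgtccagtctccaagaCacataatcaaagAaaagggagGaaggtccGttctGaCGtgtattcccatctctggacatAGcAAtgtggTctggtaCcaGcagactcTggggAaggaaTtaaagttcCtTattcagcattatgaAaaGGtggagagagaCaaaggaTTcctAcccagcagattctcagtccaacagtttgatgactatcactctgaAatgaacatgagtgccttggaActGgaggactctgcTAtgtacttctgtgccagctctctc
Trbv12-2: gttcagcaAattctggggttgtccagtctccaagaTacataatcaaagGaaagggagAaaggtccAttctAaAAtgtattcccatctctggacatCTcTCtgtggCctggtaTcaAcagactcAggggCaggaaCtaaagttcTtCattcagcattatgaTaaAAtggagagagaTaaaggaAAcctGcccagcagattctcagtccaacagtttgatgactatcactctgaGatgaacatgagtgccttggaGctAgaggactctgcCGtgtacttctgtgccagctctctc
These exons lie on the plus strand at chr6:41090709-41091001 and chr6:41096006-41096298. Whereas Trbv12-1 led in several concentrated samples, Trbv12-2 did not: it held 10.9%, 8.22% and 9.98% in Naive mice 1 to 3 and 2.67%, 3.08%, 1.29% and 4.06% in Sensitized mice 1 to 4. Its log2 fold change was -1.80 ± 0.83 (SE, edgeR adjusted p = 0.627), and it passed only in a fit of these 2 groups alone.

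Trav14-3 and Trav14n-3 differ at 6 of 309 bases, and the last 90 bases, at chr14:54001062-54001151 and chr14:53607943-53608032, hold 3 of the differences, in capitals here.
Trav14-3: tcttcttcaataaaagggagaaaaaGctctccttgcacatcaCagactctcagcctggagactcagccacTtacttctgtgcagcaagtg
Trav14n-3: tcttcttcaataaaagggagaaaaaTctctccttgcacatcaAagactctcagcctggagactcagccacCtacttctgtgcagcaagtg
Despite this likeness the copies led in different mice. N+P C5 mouse 1 had 48.8% Trav14-3 with 0.0114% Trav14n-3, whereas S+P C5 mouse 2 had 62.1% Trav14n-3 with 0.00813% Trav14-3. The copies did not exclude each other: S+P C4 mouse 6 had 12.7% Trav14-3 and 11.2% Trav14n-3. The Trav16 copies show a different picture. Trav16, Trav16d-dv11 and Trav16n differ from one another at 3 to 5 of 301 bases, of which 4 positions lie in the last 120 bases, at chr14:53981043-53981162, chr14:53285159-53285278 and chr14:53588959-53589078.
Trav16: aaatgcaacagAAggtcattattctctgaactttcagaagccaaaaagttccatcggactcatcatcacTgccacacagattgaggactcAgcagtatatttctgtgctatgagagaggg
Trav16d-dv11: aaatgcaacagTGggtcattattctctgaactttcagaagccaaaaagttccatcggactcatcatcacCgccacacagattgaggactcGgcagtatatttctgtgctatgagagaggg
Trav16n: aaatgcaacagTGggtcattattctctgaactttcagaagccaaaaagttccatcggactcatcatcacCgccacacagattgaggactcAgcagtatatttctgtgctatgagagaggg
In S+P mouse 3, C5 cells had 63.0% Trav16, 7.27% Trav16d-dv11 and 0% Trav16n (0 of 3425 Trav counts, which allows a share of up to 0.0876%), whereas C7 cells had 2.73%, 33.2% and 23.5%. All 3 copies together made up 70.2% of the Trav counts in C5 and 59.5% in C7 of this mouse. Between 61.7% and 82.9% of the 100-base windows of these 3 segments were unique, and how reads divide among the copies was not tested.

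Technical libraries were compared to see whether a leading segment repeated within a mouse. In the 5 concentrated groups, the same Trav segment led in both libraries of 12 of 17 mice and subsets, and the same Trbv segment in 13 of 17. Trav19 held 73.9% and 83.8% in libraries A and B of S+P C5 mouse 5, and 74.7% and 79.6% in S+P C7. Trbv15 held 54.8% and 55.9% in the same libraries of C5 and 56.4% and 60.4% in those of C7. In Naive mice the same segment led in both libraries of 0 of 2 mice in either chain, and in N+P C1 in 1 of 3 mice for Trav and 0 of 3 for Trbv. These counts were not compared by a test.

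Over whole repertoires, libraries A and B of 1 mouse overlapped more than libraries of different mice in all 5 concentrated groups. In S+P C5 the mean Trav overlap was 78.5% within a mouse (71.0% to 85.7%, n = 4) and 15.3% between mice (0.914% to 40.9%), and the mean Trbv overlap 89.7% (82.9% to 95.6%) and 30.8%. In Sensitized mice the Trav overlap was 60.0% within (46.8% to 72.5%, n = 4) and 17.1% between mice, and the Trbv overlap 82.7% and 52.0%. Within and between values did not overlap in any of the 5 groups in either chain. In N+P C1 they did: Trav overlap was 50.3% within and 48.3% between mice, and Trbv overlap 73.0% and 74.7%. In an exact one-sided permutation of the pairing, Sensitized and S+P C5 reached p = 0.0417 in each chain, the smallest possible with 4 mice (adjusted p = 0.125 over 12 tests). N+P C5, S+P C4 and S+P C7 reached 0.167, the smallest possible with 3. When the pairing was permuted within all 7 groups together, a test chosen after seeing these values, the mean overlap within 22 mice and subsets was 64.4% for Trav and 83.6% for Trbv against 36.2% and 58.0% over all pairings (exact one-sided permutation p = 5.36e-06 and 4.02e-06). Subsets of the same mouse entered this joint test as separate units, although their repertoires repeat in S+P mice (below). Its p values therefore count some mice more than once. The labels do not say whether the libraries came from separate sorted wells.

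**Figure D3:**
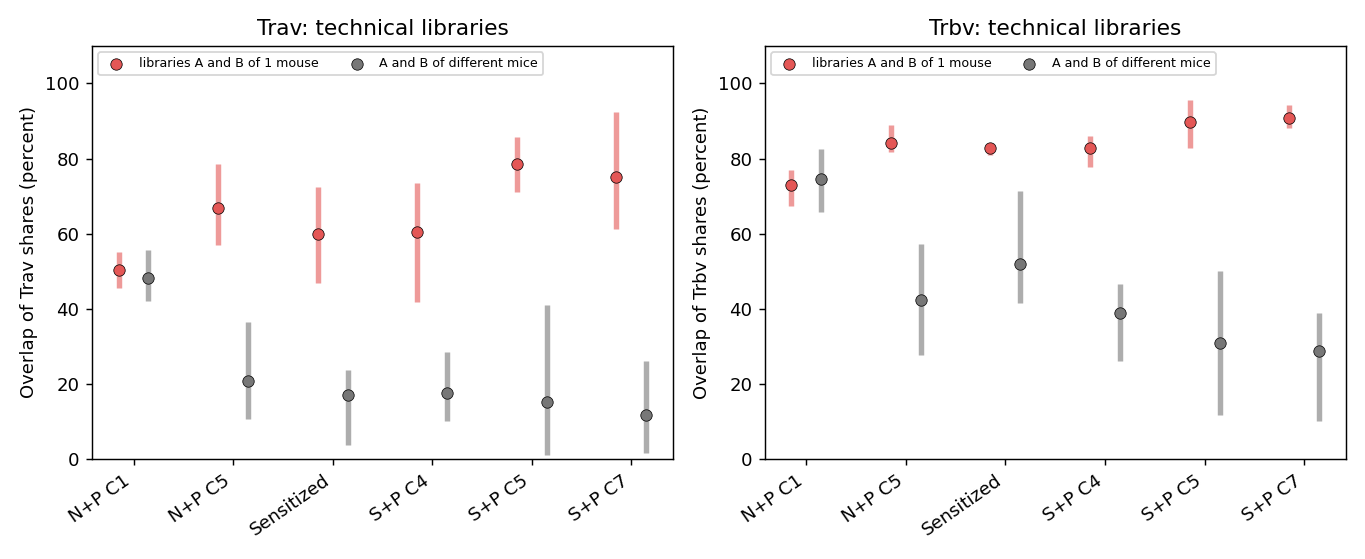
Overlap in percent of the Trav shares (left) and Trbv shares (right) of technical libraries A and B, within 1 mouse (red) and between different mice of the same group (grey); points are means and bars run from the lowest to the highest value, for the 6 groups with at least 3 mice that have both libraries. Red bars lie above grey bars in all groups except N+P C1, where the means are 50.3% and 48.3% for Trav.

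The repertoire of a mouse also repeated between its subsets after sensitization and pregnancy. S+P mouse 5 had Trav19 at 46.8%, 78.9% and 76.6% of Trav counts in C4, C5 and C7, and Trbv15 at 32.8%, 55.3% and 58.1% of Trbv counts. The highest shares in the other S+P mice were 22.2% for Trav19 and 12.6% for Trbv15. Trbv31 held 18.2%, 29.7% and 27.5% in this mouse and came after Trbv15 in C5 and C7, whereas Trbv14 came second in C4 with 21.7%. S+P mouse 4 had Trav12-2 at 51.8%, 36.4% and 44.1%, Trbv13-1 at 43.3%, 26.4% and 33.3% and Trbv14 at 11.7%, 33.5% and 36.8%. S+P mouse 2 had Trav14n-3 at 55.7% in C4 and 62.1% in C5, and Trbv17 at 66.0% and 83.3%. In S+P mouse 1, Trav5-4 led with 42.9% in C5 and 40.8% in C7 of mouse 1/2, but held 11.4% in C4, where Trav12-2 led with 28.2%. S+P mouse 6 had the highest Trav inverse Simpson number of the S+P mice in each subset, with Trbv31 at 6.94%, 25.2% and 24.9% and Trbv12-1 at 18.9%, 21.7% and 24.8%.

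S+P mouse 3 was the exception. Its C4 sample, 1 library with 7436 detected genes, had counts in 4 Trav segments only and was led by Trav13-1 at 57.8% and Trav12-1 at 38.0%. In C5 of this mouse the same segments held 3.21% and 0% (up to 0.0876% by counting error alone). The Trav overlap of C4 was 3.21% with C5 and 0% with C7. Its C7 sample, also 1 library, was the one with 15267 CPM of B cell genes and 18822 CPM of red cell genes. Beta segments repeated more: Trbv12-1 led in C5 with 53.1% and in C7 with 50.8%, but held 0.0987% in C4.

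Over all same-numbered S+P samples the mean overlap exceeded that of different numbers in every pair of subsets. Between C5 and C7 it was 61.2% for the same number and 12.4% for different numbers in Trav, and 79.6% and 32.0% in Trbv (n = 5, exact one-sided permutation p = 0.00833, adjusted p = 0.0111). Between C4 and C5 it was 44.5% and 12.1% in Trav, and 60.8% and 30.5% in Trbv (n = 6, exact one-sided permutation p = 0.00139, adjusted p = 0.00556). Between C4 and C7 it was 40.1% and 13.3% in Trav, and 60.7% and 36.8% in Trbv (n = 5, exact one-sided permutation p = 0.00833, adjusted p = 0.0111). Each of these p values was the smallest that the number of mice allows. The own number was the best partner in 14 of 16 cases for Trav and 13 of 16 for Trbv. Without the samples under 9000 detected genes the differences between same and different numbers were 31.2 percentage points (C4 with C5), 32.6 (C4 with C7) and 57.5 (C5 with C7) for Trav, each with adjusted p = 0.0556. N+P C1 and C5 of 1 mouse overlapped by 41.1% for Trav and 59.8% for Trbv, against 34.5% and 54.5% for different mice (n = 3, exact one-sided permutation p = 0.167, the smallest possible). That difference of 6.62 and 5.30 percentage points was not compared by a test with the differences in S+P mice.

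**Figure D4:**
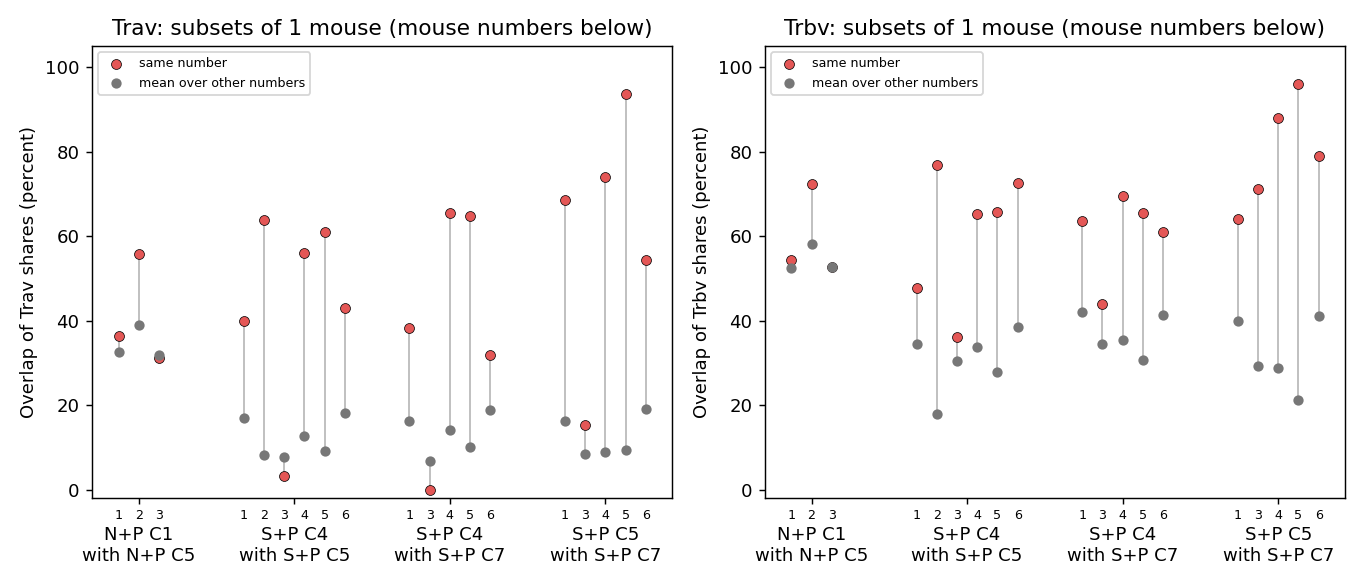
Overlap in percent of the Trav shares (left) and Trbv shares (right) between 2 subsets, for each mouse number with itself (red) and as the mean over the other numbers (grey); the mouse number stands below each pair of points. In S+P mice the red points lie above the grey ones except for Trav in C4 of mouse 3, which overlaps with C7 by 0%; in N+P mice both lie close together in mice 1 and 3.

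The same profiles bear on the copied libraries. The identical column labelled both Naive mouse 1 and S+P C4 mouse 1 overlapped with Naive mouse 1 library B by 57.2% for Trav and 78.4% for Trbv, and with the libraries of the other Naive mice by 48.8% to 58.4% and 71.6% to 79.5%. With S+P C4 mouse 1 library B it overlapped by 29.3% and 64.6%. The near copy labelled S+P C7 mouse 2 overlapped with S+P C5 mouse 2 by 11.1% for Trav and 26.3% for Trbv, and with libraries A and B of S+P C5 mouse 1 by 71.0% and 56.4% for Trav and 70.0% and 58.7% for Trbv. With S+P C7 mouse 1 library B alone in place of mouse 1/2, an alternative chosen after seeing the data, the same-number difference between C5 and C7 was 49.0 percentage points for Trav and 46.7 for Trbv.

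Tests of single segments between groups found 0 past the thresholds (edgeR's quasi-likelihood test, adjusted p under 0.1 over 19657 genes and an absolute log2 fold change above 0.9), in any of the 10 contrasts. Of the 132 segments, 66 Trav and 22 Trbv passed the filter on low counts. The share of all tested genes past the thresholds was 0.153% for Sensitized against Naive, 0% for N+P C1 against Naive, 0.0407% for N+P C5 against Naive and 0.00509% for N+P C5 against N+P C1. It was 0.00509%, 0.0712% and 0.0305% for S+P C4, C5 and C7 against Sensitized, 0.0305% for S+P C5 against S+P C4, 0% for S+P C7 against S+P C5 and 0% for S+P C5 against N+P C5. At an unadjusted edgeR p under 0.05 there were 7 of 66 Trav and 3 of 22 Trbv segments for Sensitized against Naive, beside 7.82% of all genes. There were 1 and 0 for N+P C1 against Naive (3.23%) and 2 and 0 for N+P C5 against Naive (5.33%). N+P C5 against N+P C1 had 1 and 0 (4.31%). Against Sensitized, S+P C4 had 15 and 3 (12.7%), C5 10 and 1 (13%) and C7 16 and 1 (10.2%). S+P C5 against C4 had 13 and 3 (13.3%), and C7 against C5 had 10 and 2 (12.7%). For S+P C5 against N+P C5 the counts were 12 and 4 (5.88%). DESeq2, under the same thresholds, called 6 segments for Sensitized against Naive (3.93% of all genes called), 1 for N+P C1 against Naive (2.97%), 2 for N+P C5 against Naive (4.64%) and 1 for N+P C5 against N+P C1 (3.46%). It called 11, 6 and 8 segments for S+P C4, C5 and C7 against Sensitized (4.48%, 4.75% and 3.43% of all genes), 7 for S+P C5 against C4 (4.45%), 4 for S+P C7 against C5 (2.52%) and 5 for S+P C5 against N+P C5 (2.97%). Of the 87 to 94 segments with an adjusted p in DESeq2, these calls were 6.38%, 1.15%, 2.25% and 1.15% in the first 4 contrasts. They were 12.5%, 6.82% and 8.89% for S+P C4, C5 and C7 against Sensitized. For S+P C5 against C4, C7 against C5 and S+P C5 against N+P C5 they were 7.87%, 4.4% and 5.43%. The median log2 fold change of the tested segments for Sensitized against Naive was -1.72 for Trav and -1.46 for Trbv, while that of all genes was 0.04.

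All Trbv segments together had 621 to 753 CPM in Naive, 349 to 635 in N+P C1, 624.5 to 873 in N+P C5 and 487 to 1085 in Sensitized mice. In S+P C5 the lowest, median and highest totals were 378, 1012 and 2860 CPM, the last in mouse 2, whose Trbv17 held 83.3%. The beta constant genes varied with them: in Naive mice Trbc1 made up 31.5% to 33.4% of Trbc1 and Trbc2, whereas in S+P mouse 2 it made up 3.80% in C4 and 14.7% in C5, and in S+P mouse 5 it made up 43.5%, 58.6% and 58.7% in C4, C5 and C7. Of 16 genes of receptor assembly and signalling (the Trac, Trbc and CD3 genes and the recombination machinery), 13 were tested and 0 passed in any contrast. Rag1 and Rag2, which cut the DNA for recombination, had median levels of at most 0.181 CPM in every group, with single samples at 7.04 CPM for Rag1 (N+P C1) and 17.1 CPM for Rag2 (Sensitized). Dntt, which adds bases at the joints, had 23.6 to 71.8 CPM in Naive mice, 9.72 to 13.7 CPM in N+P C1, at most 12.1 CPM in N+P C5, at most 10.05 CPM in Sensitized and at most 11.2 CPM in S+P samples.

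Joining segments gave a second readout that the choice of the variable segments did not use. The 13 Trbj segments had inverse Simpson numbers of 8.65 to 9.04 in Naive mice, 8.73 to 9.18 in N+P C1, 6.30 to 9.35 in N+P C5 and 6.05 to 8.63 in Sensitized mice. In S+P C4, C5 and C7 they were 3.01 to 9.30, 4.97 to 10.7 and 2.10 to 10.3. Only the Sensitized range did not overlap that of Naive. For the 51 Traj segments the ranges overlapped, with 16.7 to 21.2 in Naive, 16.6 to 23.1 in N+P C5, 13.03 to 24.9 in Sensitized and 8.28 to 25.2 in S+P C5. For Trbj, the overlap between S+P C5 and C7 was 79.7% for the same number and 56.1% for different numbers, and between technical libraries of S+P C5 84.1% within and 65.3% between mice. For Traj the corresponding values were 66.9% and 52.8% between subsets and 65.5% and 56.2% between libraries. The Traj overlap between libraries within and between mice was closer in N+P C5 (60.0% and 59.4%), Sensitized (50.2% and 46.5%), S+P C4 (62.8% and 59.6%) and S+P C7 (65.9% and 62.4%). These are given as a description with no test.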

How the data were processed

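Read counts per gene for 56 libraries were deposited as 1 table. Per the labels and the study's methods, the authors sorted 200 cells per library, made SmartSeq2 and Nextera XT libraries without molecular identifiers, trimmed paired reads of 150 bases with Cutadapt 3.4, aligned them to GRCm39 with STAR 2.6.1b, discarded multi-mapping reads and counted with featureCounts 2.0.1; the strand setting and annotation release are not given in the sources used here. Removal of such reads lowers counts of near-identical Trav copies. Members and gene lists were chosen with earlier results of these data known.

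Technical libraries were summed by mouse and subset. Subsets with the same replicate number in the labels were read as 1 mouse. Shares were computed within each chain. Single values were tested by exact permutation over samples, and all genes with edgeR 4.0.16 (quasi-likelihood, R 4.3.3, Benjamini-Hochberg); DESeq2 1.42.0 was an alternative. The edgeR script was tested on simulated counts for S+P C5 against Sensitized. Since nothing says that technical libraries were separate sorts, they were never used as replicates. Named segments were those with the 10 highest mean shares in each chain, the leading segments of each sample, the Trav14 and Trbv12 families, Trav11, Trav11d and Trav1. Germline exons came from GRCm39 with GENCODE M39. Figures used matplotlib.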

Additional observations from a re-analysis of the deposited data

Results flagged for a closer look

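Of 96 combinations of a group of 4 to 10 samples and a measure, 37 had 1 sample far from the rest, meaning that its gap to the nearest value, divided by the range of the group, exceeded the 95% critical value of Dixon. The rule marks about 1 in 20 groups of normally distributed values by chance. The segments tested were those with the highest mean shares, which single mice can set, so the count is not read against that rate.

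In Sensitized, these were Trav12-2 at 17.0% in mouse 4, Trav16n at 8.34% in mouse 4, Trav3-3 at 36.9% in mouse 3, Trbv15 at 16.8% in mouse 3 and Trbv13-3 at 15.6% in mouse 2, each as a share of its chain.

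In S+P C4, these were Trav19 at 46.8% in mouse 5, Trav14n-3 at 55.7% in mouse 2, Trav5-4 at 11.4% in mouse 1, Trav13-1 at 57.8% in mouse 3, Trav12-1 at 38.0% in mouse 3, Trav16n at 20.2% in mouse 2, Trav3-3 at 3.88% in mouse 1, Trbv17 at 66.0% in mouse 2, Trbv15 at 32.8% in mouse 5 and Trbv13-1 at 43.3% in mouse 4, each as a share of its chain. The Trbv total was 1493 CPM in mouse 2.

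In S+P C5, these were Trav19 at 78.9% in mouse 5, Trav12-2 at 36.4% in mouse 4, Trav14n-3 at 62.1% in mouse 2, Trav16 at 63.0% in mouse 3, Trav12-1 at 16.4% in mouse 2, Trav16n at 1.27% in mouse 1, Trav3-3 at 10.4% in mouse 1, Trbv17 at 83.3% in mouse 2, Trbv15 at 55.3% in mouse 5, Trbv13-1 at 26.4% in mouse 4, Trbv16 at 25.7% in mouse 3 and Trbv13-2 at 13.7% in mouse 6, each as a share of its chain. The inverse Simpson number of Trav segments was 11.2 in mouse 6.

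In S+P C7, these were Trav12-2 at 44.1% in mouse 4, Trav5-4 at 40.8% in mouse 1/2, Trav16 at 9.49% in mouse 5, Trav12-1 at 10.2% in mouse 6, Trav16n at 23.5% in mouse 3, Trbv15 at 58.1% in mouse 5, Trbv13-1 at 33.3% in mouse 4 and Trbv13-3 at 18.5% in mouse 6, each as a share of its chain.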

How the results depend on the processing

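Under the alternatives, 291 of 302 inverse Simpson contrasts kept their direction and none passed the threshold, and the matches of subsets kept direction and side of the threshold in all 66 values. The 52 values for technical libraries kept their direction, but with 3 or 4 mice they could not reach the threshold. The Trbv contrast of N+P C1 with Naive was -0.0858 as a mean over technical libraries. The Trav contrast of S+P C4 with Sensitized was 0.935 without the samples under 9000 detected genes and 0.587 with all 56 columns as labelled. With the replicate block, the Trav contrast of S+P C7 with C5 was -0.26, and no other direction or call changed. Leaving out 1 mouse gave Trav ranges of -8.07 to 0.114 for S+P C5 against N+P C5 (highest without N+P C5 mouse 2), -3.36 to 0.0038 for S+P C4 against Sensitized (highest without Sensitized mouse 2), -3.30 to 0.317 for S+P C5 against C4 (highest without S+P C4 mouse 6) and -0.70 to 1.51 for S+P C7 against C5 (without C7 or C5 mouse 6). The edgeR counts of 0 segments became, with DESeq2 (which called 2.52% to 4.75% of all genes), 6 for Sensitized against Naive, 1 for N+P C1 against Naive, 2 for N+P C5 against Naive, 1 for N+P C5 against N+P C1, 11, 6 and 8 for S+P C4, C5 and C7 against Sensitized, 7 for S+P C5 against C4, 4 for C7 against C5 and 5 for S+P C5 against N+P C5. It was 1 (Trbv12-2, Sensitized against Naive) with only these groups in the fit, and 1 (Trav3-1, S+P C5 against Sensitized) without the samples under 9000 detected genes. The causes were not tested. With 200 cells in a library, few cells can set a share.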
